A study of Mus musculus with 6 samples.

Results

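The genes examined were 10 enzymes that make phosphatidylcholine, phosphatidylethanolamine and phosphatidylserine: Chka, Chkb, Pcyt1a, Pcyt2, Chpt1, Cept1, Ptdss1, Ptdss2, Pisd and Lpcat3. They were chosen by name, as the enzymes of these steps, and all 10 were found among the 17463 genes measured. RNA was measured in 6 samples of erythroblasts, the precursors of red cells, from the fetal liver of C57BL/6J mice. Cells negative for TER119, a marker of late erythroid cells, were purified, grown in medium with erythropoietin for 30 h and, by the methods of the study, sorted for TER119 before RNA was taken. The 3 control samples carry the label untreated, although the study also describes such cells as given vehicle, and the 3 cholesterol samples received 40 µM cholesterol. All 6 samples share the strain, tissue, culture and time, and no genetic change is named for either group. Nothing in the labels says that samples of a group came from separate animals or cultures, so p-values here measure only the spread between these samples.

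Phosphatidylcholine and phosphatidylethanolamine are the main phospholipids of animal membranes and are made by parallel routes, named for Kennedy, in which choline or ethanolamine is phosphorylated, coupled to CTP and then joined to diacylglycerol. Phosphatidylserine, held on the inner face of the red cell membrane, is made from these lipids by exchange of the head group, and can be turned back into phosphatidylethanolamine in mitochondria. Acyltransferases then replace the fatty acid chains, and Lpcat3 is the enzyme best known for placing polyunsaturated chains into phosphatidylcholine. Sterol-regulated transcription factors, SREBP and LXR, are known to act on parts of these pathways in other tissues.

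Promoter sequences from RefSeq (GRCm38.p6, 250 bases before to 50 bases after a transcript start) were matched for 8 of the 10 genes, with 13 windows in all. The windows of Lpcat3 and Pcyt1a are printed, Lpcat3 because it is the gene that passed the paired test below and Pcyt1a because it was the gene, among the 8 searched, with the SREBP element in a window. Pcyt2 and Ptdss1 were not searched. The Ptdss2 window, at chr7:141131036-141131335, lies inside the gene, which begins at 141122382, so the sequence at that gene start was not searched either. Capitals mark matches on either strand to TCACNCCAC (the SREBP element), CCAAT (the NF-Y box) and GGGCGG (the GC box), where a match on the other strand reads as its reverse complement and neighbouring GC boxes may overlap. The Lpcat3 window lies at chr6:124662854-124663153 on the plus strand and the Pcyt1a window at chr16:32430671-32430970 on the plus strand.
Lpcat3: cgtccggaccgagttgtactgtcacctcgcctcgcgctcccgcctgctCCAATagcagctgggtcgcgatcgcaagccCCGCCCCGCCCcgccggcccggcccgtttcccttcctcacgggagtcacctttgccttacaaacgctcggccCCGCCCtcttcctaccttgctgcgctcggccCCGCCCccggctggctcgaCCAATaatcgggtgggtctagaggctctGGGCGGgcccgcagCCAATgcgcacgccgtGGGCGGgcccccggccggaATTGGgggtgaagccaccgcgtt
Pcyt1a: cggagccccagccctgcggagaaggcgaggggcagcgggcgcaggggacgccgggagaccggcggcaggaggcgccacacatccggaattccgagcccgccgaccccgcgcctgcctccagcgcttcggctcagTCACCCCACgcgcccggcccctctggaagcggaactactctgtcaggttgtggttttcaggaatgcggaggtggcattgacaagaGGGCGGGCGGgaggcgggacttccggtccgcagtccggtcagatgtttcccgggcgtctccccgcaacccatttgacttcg
The Lpcat3 window had 71.0% G and C, 4 CCAAT boxes and 6 GC boxes, and no match to the SREBP element. The Pcyt1a window had 69.7% G and C, 1 SREBP element beginning 116 bases before the start, and 2 overlapping GC boxes. Of the other Pcyt1a windows, both farther downstream, one held the same SREBP element and the other held none. Among all 32851 promoter windows of this length, 1.24% held the SREBP element, 37.4% a CCAAT box and 35.7% a GC box. CACGTG (an E-box, in 7.15% of all windows), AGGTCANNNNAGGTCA (the DR4 type of LXR element, in 0.0152%) and AGATAA (the erythroid site of GATA factors, in 11.2%) were not matched in any of the 13 windows. These matches describe letters in these windows and say nothing of binding.

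All 6 libraries were of like depth, with 19826797 to 20061702 counts, so that 3 counts came to about 0.15 CPM (counts scaled by library size). The adult globin genes took 12.5% to 17.9% of the counts, and erythroid markers were abundant in every sample. Abcg1, a sterol exporter that answers to LXR, checked the treatment, at 6.93, 4.36 and 6.39 CPM in control samples 1 to 3 and 100.6, 93.9 and 99.0 CPM in cholesterol samples 1 to 3. Summed granulocyte markers ran from 74.3 to 752 CPM in controls and 45.5 to 310.2 CPM with cholesterol. They were lower with cholesterol in 3 of 3 same-numbered pairs, with 12 of 12 markers detected. Of the 12 tested, 10 were called lower in the edgeR fit with the replicate number as a block (below). In that fit, which also gave the marker calls that follow, 5.20% of all genes were called lower. With condition alone in the model, 0 genes of each marker list were called, beside 0.00887% of all genes. Macrophage markers ran from 20.2 to 156 and from 14.8 to 66.7 CPM, with 6 of 8 tested called lower, and mast cell markers from 3.59 to 32.6 and from 1.33 to 5.62 CPM, with 3 of 3 tested called lower and Tpsb2 at 0 in every sample. Erythroid markers ran from 113700 to 149400 and from 100300 to 135700 CPM (3 of 11 called lower), megakaryocyte markers from 63.1 to 78.9 and from 60.1 to 67.3 CPM (1 of 8 called lower), and hepatocyte markers from 125.0 to 362 and from 86.7 to 303 CPM (0 of 8 called). The erythroid, macrophage, mast cell and megakaryocyte sums were also lower with cholesterol in 3 of 3 pairs, and the hepatocyte sum in 2 of 3, and 10 of the 11 erythroid markers had a log2 fold change below 0. In bulk RNA, fewer cells of a type and less RNA per cell cannot be told apart.

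The 10 genes spanned a wide range of level. Per length, as reads scaled by gene length and library size (FPKM, mean ± SD over all 6 samples), the order was Ptdss2 at 148.5 ± 2.99, Lpcat3 at 46.8 ± 6.42, Pcyt1a at 28.2 ± 0.991, Pcyt2 at 20.9, Chkb at 14.5, Cept1 at 11.3, Ptdss1 at 7.67, Pisd at 6.82, Chka at 3.15 and Chpt1 at 0.882. Pcyt2 ranged from 11.9 to 37.1 FPKM and overlapped its neighbours Pcyt1a and Chkb, and Ptdss1 overlapped Pisd. The other neighbours in this order did not overlap in any sample.

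**Figure D1:**
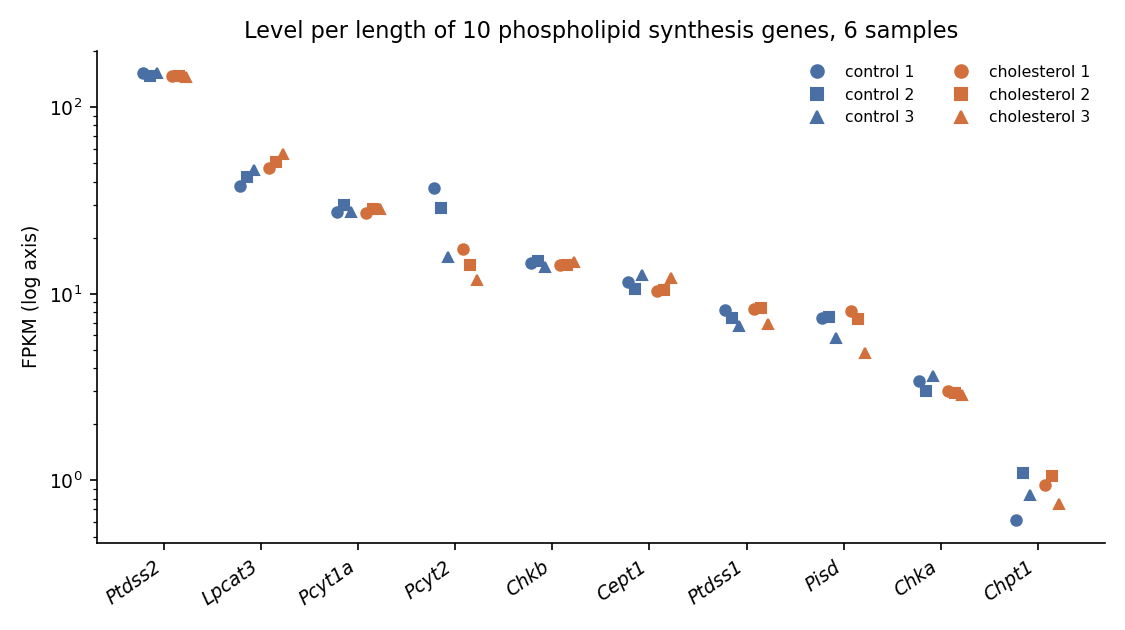
FPKM (log axis) of the 10 genes in each of the 6 samples, control in blue and cholesterol in orange, with a marker shape for each replicate number. Ptdss2 lies highest at 145.2 to 152.6 FPKM, Chpt1 lowest at a mean of 0.882 FPKM, and Pcyt2 has the widest spread, from 11.9 to 37.1 FPKM.

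In 3 pairs of enzymes that do the same kind of step, one gene carried most of the message per length. Ptdss2 made up 94.6% to 95.8% of the FPKM of Ptdss1 and Ptdss2 in the 6 samples, and Cept1 made up 90.7% to 94.98% of that of Chpt1 and Cept1. Chkb made up 79.3% to 83.9% of that of Chka and Chkb. That last share is uncertain, since 50.7% of the exon bases of Chkb are shared with another gene on the same strand.

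The question of the main comparison was which of these genes differed between cholesterol and control samples. With condition alone in the model (edgeR quasi-likelihood test, Benjamini-Hochberg over 11277 genes), none of the 10 genes passed an adjusted p of 0.05, beside 0.00887% of all genes tested, 1 of the 10 (Pcyt2) had an unadjusted p under that value, beside 2.63%, and DESeq2 with condition alone called 0, beside 0.164%. Same-numbered samples deviated together for numbers 1 and 3 (correlations 0.729 and 0.825), so a fit with the replicate number as a block was also read. For number 2 the correlation was 0.348, hardly above the 0.3465 of control 1 with cholesterol 2. No pairing is named in the labels, and the calls with the block rest on it. With the block, 1 of the 10 genes (Lpcat3) was called higher in edgeR, beside 1.65% of all genes. None was called lower, beside 5.20%. At an unadjusted p under 0.05 the block counted 2 of the 10, near the 19.6% of all genes. DESeq2 with the same block called 1 higher (Lpcat3), beside 0.370%, and 1 lower (Pcyt2), beside 2.16%. The log2 fold change was below 0 for 8 of the 10 genes and above 0 for 2, with a median of −0.04 in both fits, against 0.01 over all genes tested. For 8 of the 10 it was smaller than 0.2 in size, as it was for 76.5% of all genes tested. For 2 of the 10, Lpcat3 and Chka, all samples of one group lay to one side of the other, beside 8.0% of all genes. Within pairs, 3 of the 10 were lower with cholesterol in every pair, beside 20.1% of all genes, and 1 was higher in every pair, beside 19.9%.

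**Figure D2:**
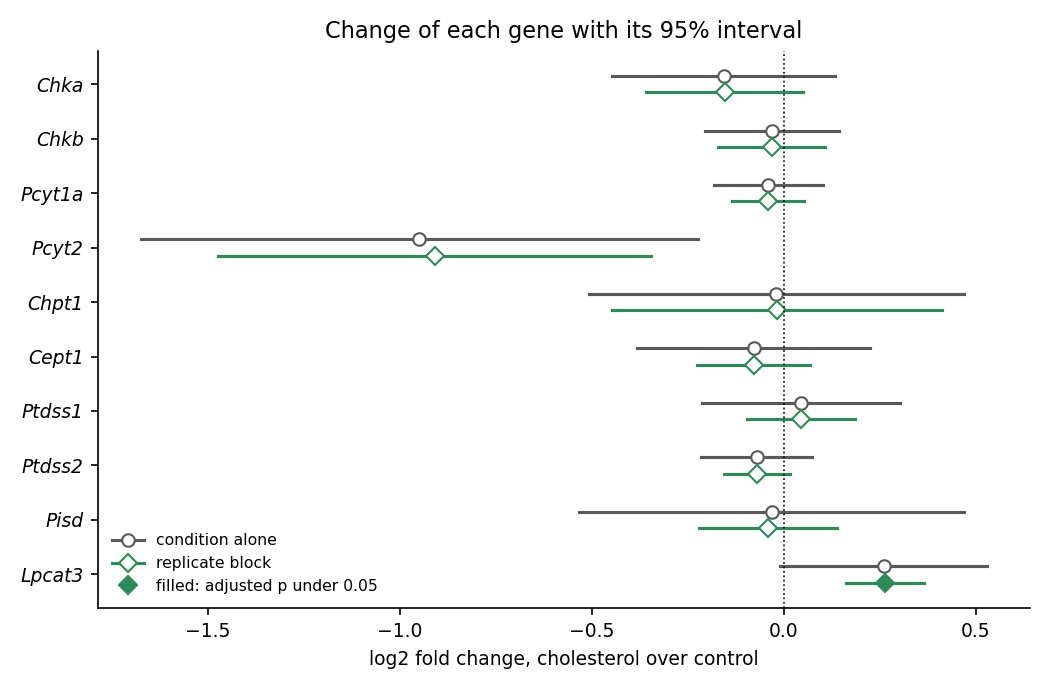
Log2 fold change of cholesterol over control for each of the 10 genes with its 95% interval, from the fit with condition alone (grey circles) and with the replicate block (green diamonds), filled where the adjusted p was under 0.05. Lpcat3 in the block fit is the filled point, at 0.26, and Pcyt2 lies farthest from 0, at −0.95 and −0.91.

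Lpcat3 (6:124663027-124704418, plus strand, GRCm38), the acyltransferase that remodels phosphatidylcholine, stood at 67.5, 77.9 and 85.9 CPM in control samples 1 to 3 and at 86.0, 89.5 and 101.5 CPM in cholesterol samples 1 to 3. Every cholesterol sample was above every control sample, but the lowest of them was level with the highest control. Within pairs the log2 difference was 0.35, 0.20 and 0.24. The log2 fold change was 0.26 ± 0.11 (SE, n = 3 per group) with condition alone, with an adjusted p of 0.9998 in edgeR. With the replicate block it was 0.26 ± 0.05 (95% interval 0.16 to 0.36), a rise of 19.98%, with an adjusted p of 0.00208 in edgeR. DESeq2 with the same block gave an adjusted p of 0.0264. Without both samples of number 1, 2 or 3, the block in edgeR gave 0.0443, 0.0104 and 6.8e-05. Per length, Lpcat3 made up 23.8%, 24.4% and 28.3% of the FPKM of Lpcat1 to Lpcat4 in controls and 27.4%, 28.5% and 31.2% with cholesterol, so the shares overlapped between groups but were higher with cholesterol in each pair. Of the exon bases of Lpcat3, 10.2% overlap Emg1 on the opposite strand, whose own log2 fold change was 0.02 with the block, and the use of strand in counting is not given in the sources used here. The summed granulocyte, macrophage and mast cell markers were lower with cholesterol in all 3 pairs, the direction opposite to that of Lpcat3. Within each group, however, those sums and Lpcat3 were both lowest in sample 1 and highest in sample 3, and the part of those cells in its difference was not tested.

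**Figure D3:**
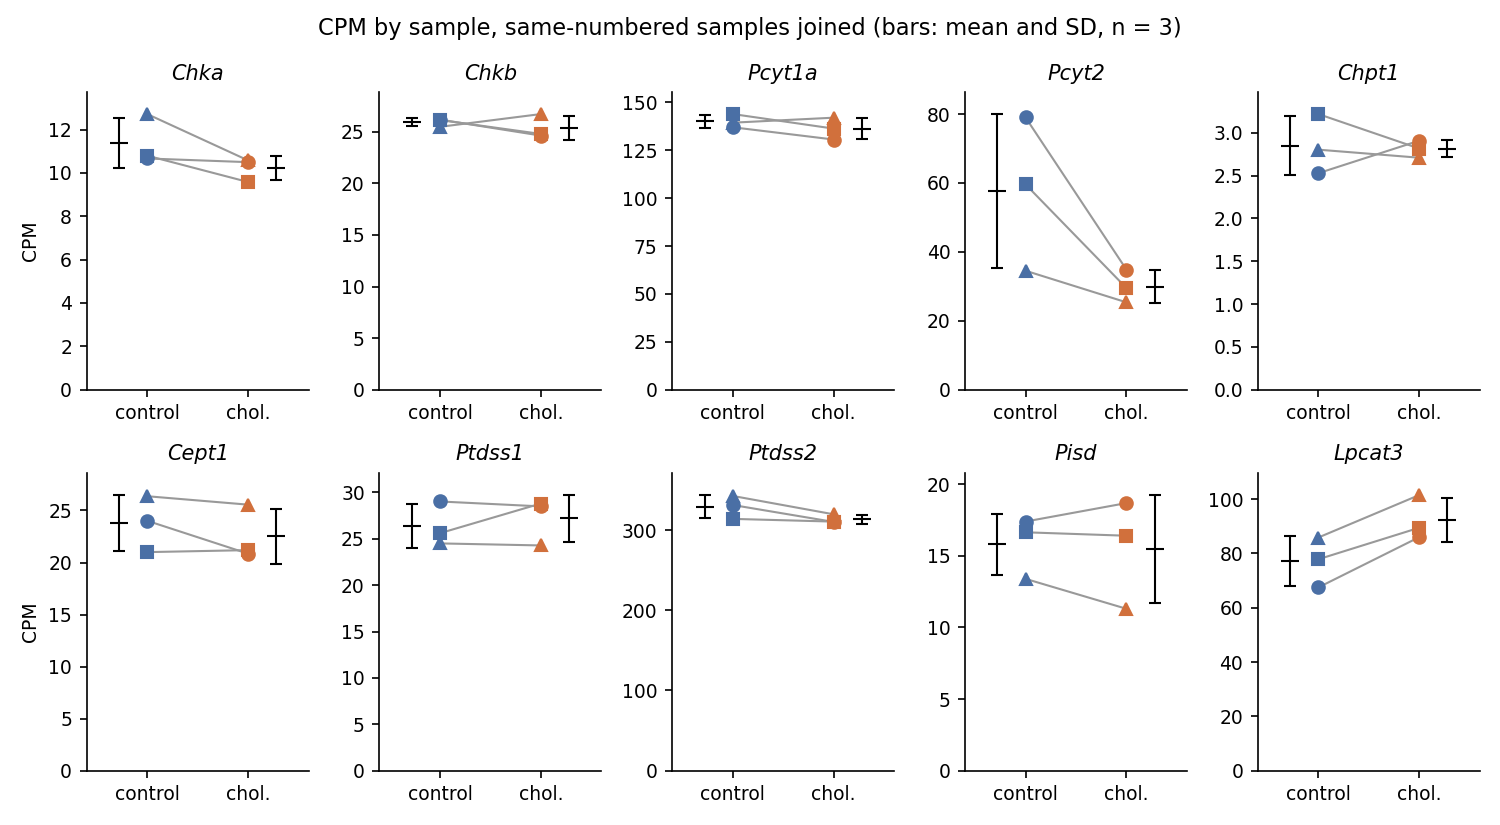
CPM (axis from 0) of each of the 10 genes in control and cholesterol samples, with same-numbered samples joined by grey lines and black bars for the mean and SD of the 3 samples. The 3 lines of Lpcat3 all go up, and those of Pcyt2, Chka and Ptdss2 all go down.

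Pcyt2 (11:120610087-120617936, minus strand), the cytidylyl transferase of the ethanolamine route, had the largest log2 fold change in size among the 10 genes. It stood at 79.0, 59.6 and 34.5 CPM in control samples 1 to 3 and at 34.9, 29.5 and 25.4 CPM in cholesterol samples 1 to 3. Control sample 3 was just below cholesterol sample 1, so the groups overlapped, but each cholesterol sample was below the control of its number, by −1.18, −1.01 and −0.45 on the log2 scale. The log2 fold change was −0.95 ± 0.30 (SE, n = 3 per group, 95% interval −1.67 to −0.22) with condition alone, with an adjusted p of 0.9998 in edgeR, and 4.10% of all genes tested had a lower value. With the replicate block it was −0.91 ± 0.18, with an adjusted p of 0.12 in edgeR, whereas DESeq2 with the same block gave an adjusted p of 3.4e-09. Left without both samples of number 1, the block fit called Pcyt2 (−0.75, adjusted p = 0.0154 in edgeR). Without both of number 3 it did so too (−1.10, adjusted p = 3.0e-59 in edgeR), whereas without both of number 2 it did not (−0.85, adjusted p = 0.506 in edgeR). So wide a spread of adjusted p between fits on fewer samples leaves these calls unsure. Over these alternatives the direction held and the call did not, and with all 6 samples Pcyt2 passed neither fit in edgeR and passed the block in DESeq2. Granulocyte, macrophage and mast cell markers were lower in the same 3 pairs, but their summed level was highest in sample 3 of each group, where Pcyt2 was lowest, and their part in its difference was not tested.

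Pcyt1a (16:32430921-32475070, plus strand), the cytidylyl transferase that sets the pace of the choline route, stood at 137.0, 143.9 and 139.4 CPM in controls and at 130.6, 136.3 and 142.0 CPM with cholesterol. These values overlapped, and the log2 fold change with the block was −0.04 (95% interval −0.13 to 0.05, adjusted p = 0.694 in edgeR). The ratio of Pcyt2 to Pcyt1a, in FPKM, was 1.35, 0.971 and 0.575 in controls and 0.639, 0.502 and 0.417 with cholesterol, which overlapped between groups but was lower with cholesterol in each pair. Pcyt1b, a second gene for the same step and not one of the 10, stood at 118.1, 122.9 and 117.2 CPM in controls and at 97.0, 96.3 and 112.3 CPM with cholesterol. Its groups did not overlap, and with the block it fell by 0.23 on the log2 scale (adjusted p = 0.0145 in edgeR, and 0.9998 with condition alone). Pcyt1a made up 54.0% to 54.6% of the FPKM of both genes in controls and 56.1% to 58.9% with cholesterol.

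The kinases open the route. Chka (19:3851773-3894369, plus strand), a choline and ethanolamine kinase, stood at 10.7, 10.8 and 12.7 CPM in controls and at 10.5, 9.58 and 10.6 CPM with cholesterol. All 3 cholesterol samples were below all 3 controls by a narrow margin, but the log2 fold change of −0.15 with the block had a 95% interval of −0.36 to 0.05 and an adjusted p of 0.423 in edgeR. Chkb (15:89426360-89429908, minus strand), the second kinase, stood at 26.2, 26.2 and 25.5 CPM in controls and at 24.6, 24.8 and 26.7 CPM with cholesterol. Its groups overlapped, with a log2 fold change of −0.03 (95% interval −0.17 to 0.11 with the block). Its value is uncertain, since 50.7% of its exon bases are shared with a read-through gene on the same strand.

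The final transferases join the activated head group to diacylglycerol. Cept1 (3:106502260-106547802, minus strand), which accepts both head groups, stood at 24.0, 21.0 and 26.4 CPM in controls and at 20.9, 21.2 and 25.6 CPM with cholesterol. Chpt1 (10:88452745-88504073, minus strand), which makes phosphatidylcholine, stood at 2.53, 3.22 and 2.80 CPM in controls and at 2.91, 2.82 and 2.71 CPM with cholesterol, from 50 to 65 counts in a sample. Both groups of values overlapped. With the block, the 95% interval of the log2 fold change was −0.23 to 0.07 for Cept1 and −0.45 to 0.41 for Chpt1, and the latter spans a rise of 33.1%. Of the exon bases of Cept1, 24.7% overlap Dennd2d on the opposite strand (mean 2.51 CPM), and the use of strand in counting is not known.

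Ptdss2 (7:141122382-141157606, plus strand), which makes phosphatidylserine from phosphatidylethanolamine, had the highest level per length. It stood at 331.2, 313.9 and 342.5 CPM in controls and at 310.1, 310.5 and 319.6 CPM with cholesterol. It was lower in all 3 pairs, with overlapping groups, and its log2 fold change of −0.07 with the block had a 95% interval of −0.16 to 0.02 and an adjusted p of 0.378 in edgeR. Ptdss1 (13:66932830-66998401, plus strand), which uses phosphatidylcholine instead, stood at 29.02, 25.6 and 24.5 CPM in controls and at 28.5, 28.8 and 24.3 CPM with cholesterol. Pisd (5:32736301-32785646, minus strand), the mitochondrial decarboxylase, stood at 17.4, 16.6 and 13.4 CPM in controls and at 18.7, 16.4 and 11.3 CPM with cholesterol. Both overlapped between groups, with log2 fold changes with the block of 0.04 for Ptdss1 (95% interval −0.10 to 0.18) and −0.04 for Pisd (95% interval −0.22 to 0.14). Of the exon bases of Ptdss1, 5.33% overlap Mterf3 on the opposite strand (mean 22.2 CPM), again with the use of strand not known. Sample 3 was the lowest of its group for Pisd in both conditions. The value of Pisd is uncertain, since the genome holds the pseudogenes Pisd-ps1 and Pisd-ps2 and 20.1% of its exon bases are shared with another gene on the same strand.

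Genes with the pattern most like that of Lpcat3 over the 6 samples, by Pearson's r of log2 CPM among 7243 genes with a mean of at least 10 CPM, were Zfp346 (r = 0.998), Fgd6 (r = 0.996) and Phf3 (r = 0.995). Zfp346, which encodes a zinc finger protein, stood at 27.0, 28.5 and 29.7 CPM in controls and at 29.6, 29.9 and 31.3 CPM with cholesterol. Fgd6, an exchange factor for a small GTPase, stood at 18.1, 21.5 and 24.1 CPM in controls and at 24.8, 25.4 and 31.3 CPM with cholesterol. Phf3 stood at 85.6, 96.7 and 102.3 CPM in controls and at 102.9, 108.7 and 119.0 CPM with cholesterol. With the block, the log2 fold change was 0.09 for Zfp346, 0.36 for Fgd6 and 0.22 for Phf3, so likeness of pattern went with changes of unlike size. The genes most like Pcyt2, which were looked up after its values were seen, were Nsdhl (r = 0.9995), Dhcr7 (r = 0.997) and Acat2 (r = 0.994), which are enzymes of cholesterol synthesis. Dhcr7, the last enzyme of one branch of that route, stood at 35.9, 23.0 and 8.10 CPM in controls and at 8.58, 6.08 and 3.83 CPM with cholesterol. With the block, the log2 fold change was −0.77 for Nsdhl, −1.80 for Dhcr7 and −0.86 for Acat2. In all 3, as in Pcyt2, control sample 3 was close to cholesterol sample 1. With 6 points and so many genes compared, such correlations describe the pattern, and since likeness over these samples chose the genes, their fold changes are given with no test.

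**Figure D4:**
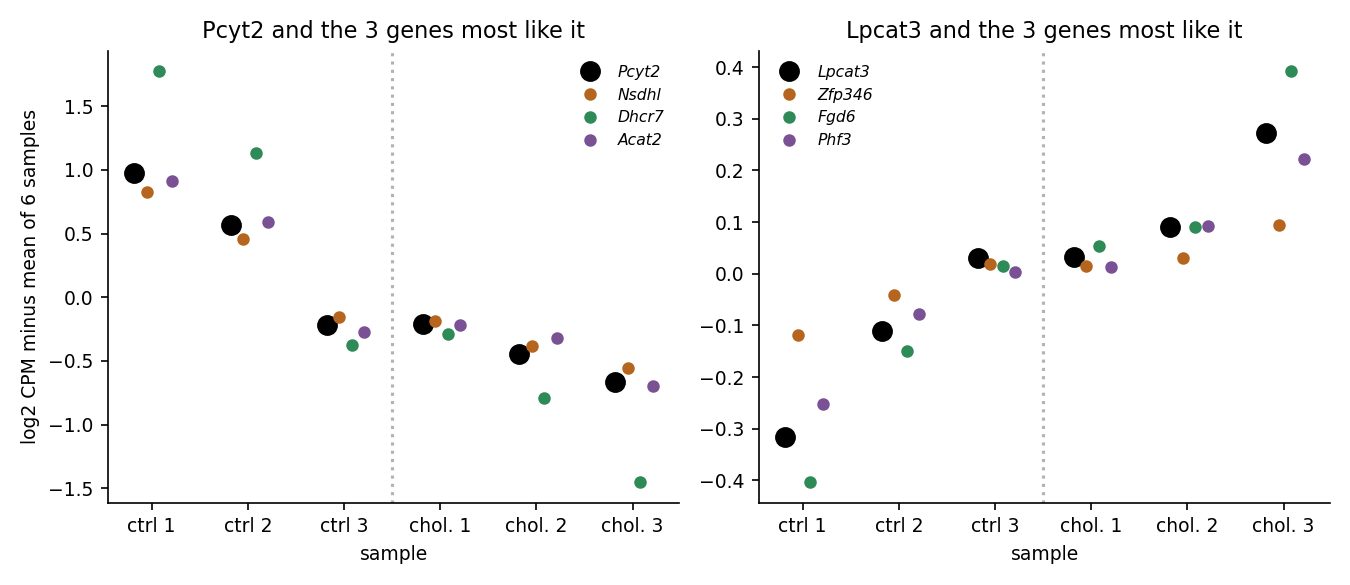
Log2 CPM minus the mean of the 6 samples for Pcyt2 (left) and Lpcat3 (right), in black, and the 3 genes most like each, by sample, where ctrl is control and chol. is cholesterol. The 4 genes on the left are highest in control sample 1 and lowest in cholesterol sample 3, and control sample 3 lies near cholesterol sample 1 on both sides.

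Around these enzymes, 5 lists of related phospholipid genes held 93 genes, of which 81 were tested. With condition alone 0 of the 81 were called in edgeR and 0 in DESeq2, and 3 had an unadjusted p under 0.05. With the block 1 was called higher and 5 lower, shares near the 1.65% and 5.20% of all genes, with a median log2 fold change of −0.01, against 0.01 over all genes. The called genes are therefore given by their values and not as a result about the lists. Of 9 other genes of the head group routes, 0 were called higher and 1 (Pcyt1b) lower, and of 13 genes of phosphatidylinositol and cardiolipin synthesis 0 were called and 0 had an unadjusted p under 0.05 with condition alone, with Hadha having the smallest p (log2 fold change −0.06, adjusted p = 0.491 in edgeR).

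Among 19 other genes of acyl chain remodelling, 2 were called lower with the block and 0 higher. Lpcat2, an acyltransferase that also takes part in making platelet-activating factor, stood at 0.354, 1.14 and 4.52 CPM in controls and at 0.0986, 0.445 and 1.53 CPM with cholesterol, and fell by 1.52 on the log2 scale (adjusted p = 0.00846 in edgeR). Lpgat1, a lysophospholipid acyltransferase, stood at 1.62, 2.28 and 4.78 CPM in controls and at 1.28, 1.19 and 1.89 CPM with cholesterol, and fell by 0.92 (adjusted p = 0.0352 in edgeR). Both genes were low, and both groups overlapped.

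Among 24 genes that supply phosphatidic acid and diacylglycerol, 1 was called higher and 0 lower. This was Dgkz, which turns diacylglycerol into phosphatidic acid, at 241.1, 211.2 and 156.7 CPM in controls and 273.1, 239.2 and 196.9 CPM with cholesterol, a log2 fold change of 0.23 with the block (adjusted p = 0.00321 in edgeR). Among 17 flippases and scramblases, 2 were called lower and 0 higher. Tmem41b, a scramblase of the endoplasmic reticulum, stood at 79.4, 77.4 and 68.8 CPM in controls and at 61.1, 61.3 and 58.2 CPM with cholesterol, without overlap, and fell by 0.32 (adjusted p = 0.000447 in edgeR). Atp8b4, a flippase, stood at 1.87, 4.01 and 8.72 CPM in controls and at 0.936, 1.98 and 4.04 CPM with cholesterol, and fell by 1.06 (adjusted p = 0.00204 in edgeR). Lpcat2, Lpgat1 and Atp8b4 were highest in sample 3 of each group, as were the summed granulocyte, macrophage and mast cell markers given above, and the part of those cells in the differences was not tested. With condition alone, each of the 6 related genes called with the block had an adjusted p of 0.9998 in edgeR. Their number moved with the setting: DESeq2 with the block called 2 related genes. The edgeR block called 3 without both samples of number 2, and 8 without both of number 1 or of number 3.

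**Figure D5:**
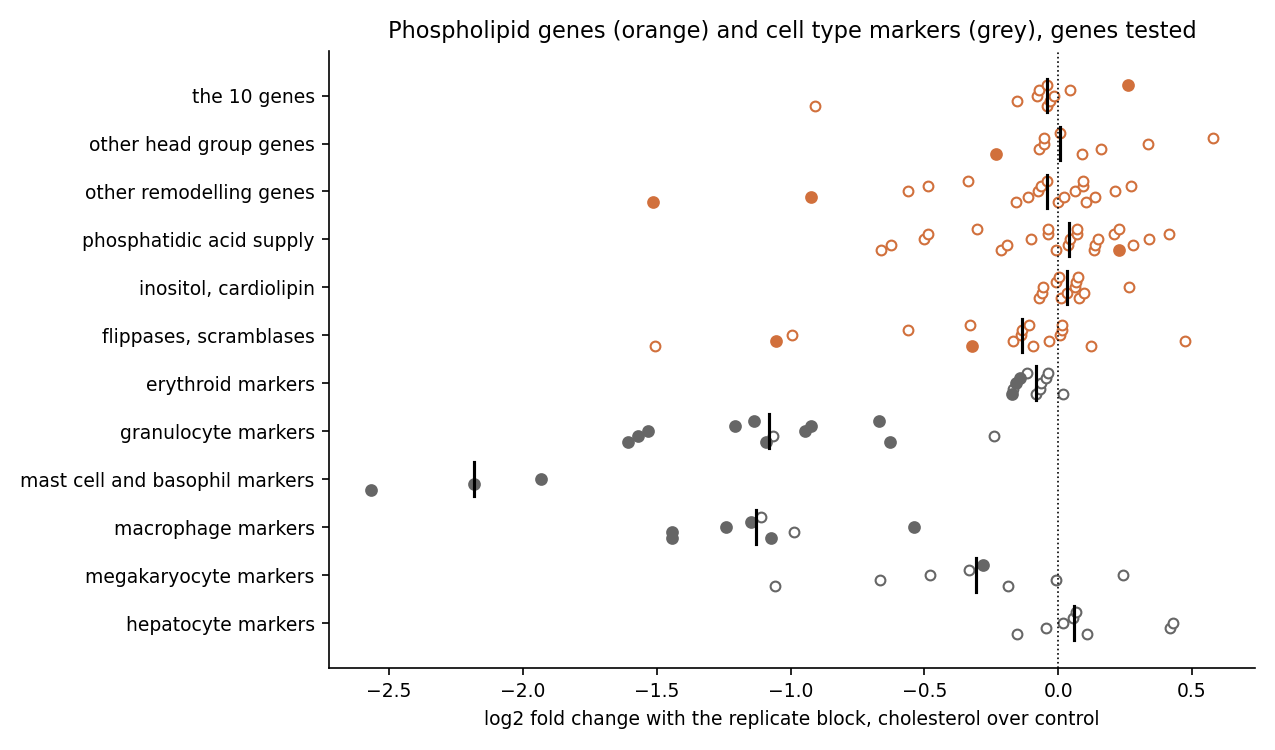
Log2 fold change with the replicate block for each tested gene of the phospholipid lists (orange) and of the cell type marker lists (grey), filled where the adjusted p was under 0.05, with a black line at the median of each list. The phospholipid lists have medians from −0.13 to 0.04, while the granulocyte markers have a median of −1.08 and the macrophage markers of −1.13.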

How the data were processed

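RNA of 6 samples (3 control, 3 cholesterol) was sequenced after poly(A) selection. The deposited expected counts per gene and FPKM values were made by the authors. The FPKM unit was inferred from the values: implied lengths over annotated transcript lengths had a median ratio of 0.9975 over 155 genes. The submitters' processing notes name HISAT2 2.0.4, Bowtie2 2.2.5, RSEM 1.2.12, DESeq2 1.4.5 and GRCm38.p6, with no roles given. Gene positions came from GENCODE on GRCm38.

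Expected counts were rounded to whole numbers. Genes passed a count filter (10, and 15 in total), were scaled by TMM, and were tested in R 4.3.3 with the quasi-likelihood test of edgeR 4.0.16, with condition alone, and with the replicate number of the labels as a block, adjusting over all 11277 genes (threshold 0.05). Deviations from the group means of same-numbered samples correlated at 0.729, 0.348 and 0.825 (other pairs −0.795 to 0.3465, the highest being control 1 with cholesterol 2), so the numbers were taken to pair the samples. CPM are TMM-scaled. No library pair agreed within sampling noise. The steps were tested on simulated data.

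Alternatives used DESeq2 1.42.0, limma 3.58.1 on log2(FPKM + 1) and log2(FPKM + 0.1), DESeq2 size factors, other filters, no globin genes, and left-out samples. The text names all 10 enzymes, each related gene called in either fit or otherwise the smallest p of its list, the 3 genes most like a called enzyme, and Abcg1. The genes like Pcyt2 lie outside this rule. The enzymes and lists were chosen with earlier results of these data known. Etnppl, Atp10d and Ahsp were listed but not matched by name among the 17463 genes, and so have no values here.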

Additional observations from a re-analysis of the deposited data

How the results depend on the processing

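Each result was recomputed under 20 alternatives. Lpcat3 stayed above 0 in all 20 (0.18 to 0.35) and was called in 7, all with the replicate block, while Pcyt2 stayed below 0 in all 20 (−1.21 to −0.65) and was called in 3. In counts, 1 of the 10 genes was called higher in each of the 7 settings with the block, and 1 was called lower with the block in DESeq2 and with the block without both samples of number 1 or of number 3. The block changed no other call of the 10 genes. Chka, Chkb, Pcyt1a and Ptdss2 kept their direction in all 20 and were never called, but without one sample their values ran from −0.198 to −0.0697, −0.0665 to −0.0096, −0.0673 to −0.0100 and −0.103 to −0.0409. For 4 genes near 0 the sign turned, without a call: Chpt1 was 0.0587 and 0.123 in limma on log2(FPKM + 1) and log2(FPKM + 0.1), −0.0955 to 0.0784 without one sample (0.0085 without cholesterol 3), and 0.0767 with the block without number 2. Pisd was −0.190 to 0.153 without one sample and 0.0408 with the block without number 3. Ptdss1 was −0.00553 to 0.122 without one sample and −0.0198 with the block without number 2. Cept1 was −0.18 to 0.0028 without one sample. The median of the 10 genes ran from −0.0669 to −0.0213 without one sample and was −0.0667 with the block without number 3. The cause of these shifts was not tested.

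Over all genes, edgeR called 1 higher and 0 lower with condition alone, 186 and 586 with the block, and 41 and 239 with the block in DESeq2. The block gave 368 and 829 with no filter on low counts, and 118 and 703, 67 and 229, and 210 and 516 without both samples of number 1, 2 and 3, so the shares of all genes called move with these choices. DESeq2 with condition alone called 2 and 25. Leaving out control 3 gave 1 and 7. Of the related genes, 0 were called with condition alone, 6 with the block, 2 with the block in DESeq2, 3 with the block without number 2, and 8 with the block without number 1, without number 3 or with no filter. Dixon's test was not applied, since no group had 4 samples.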
